A study of Homo sapiens with 6 samples.

Results

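Glucose is split to pyruvate in the cytosol by a fixed order of enzymes, and several of these steps are carried out by isozymes, related proteins that run the same reaction but are encoded by different genes. The values of 10 such genes are given here out of the 21494 genes in the table of RNA-seq counts. They form 5 pairs: the hexokinases HK1 and HK2, the phosphofructokinases PFKP and PFKL, the aldolases ALDOA and ALDOC, the enolases ENO1 and ENO2, and the lactate dehydrogenase subunits LDHA and LDHB. The 10 genes were picked by symbol with their values in these samples already known, LDHB because it has no count in any knockdown sample, so their values are given as a description and without a test. All 10 were in the table.

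The study asked how the loss of VprBP, a kinase of histone H2A that is encoded by DCAF1, changes transcription in melanoma cells. Total RNA was sequenced from 3 samples with a control shRNA, termed Control sh, and from 3 samples with an shRNA against the coding region of DCAF1, termed VprBP sh. The labels call the 3 Control sh samples WT and the 3 VprBP sh samples DCAF1 Knockdown. By the methods the shRNA against VprBP was delivered in the lentiviral vector pLKO.1, infected cells were selected with puromycin, and G361 cells were grown in medium with serum. The vector and the selection of the control cells are not given in the sources used here. The labels name the cell line as G361, a human melanoma line, but give LD611 as the source name of all 6 samples. Nothing in the labels says that the 3 samples of a group came from separate cultures, so the spread between them may be technical. The RNA is from bulk cells, in which fewer cells of a type and less RNA per cell cannot be told apart.

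The samples held 18195949 to 26883948 estimated counts each. DCAF1, the targeted gene, had 688, 893 and 884 counts with Control sh and 681, 488 and 628 with VprBP sh. Scaled for depth, it averaged 869 ± 91 normalized counts with Control sh against 583 ± 154 after the knockdown (SD, n = 3). Its log2 fold change was -0.58 ± 0.17 (SE), with an adjusted p of 0.0125 in edgeR's quasi-likelihood test and a change smaller than 2-fold. Of 8 melanocyte markers, TYR, DCT, SOX10 and S100B were not among the genes listed, and the other 4 summed to 199 to 236 normalized counts with Control sh and 244 to 308 with VprBP sh. Most of that sum was MITF, at means of 172 and 237, then PMEL at 35.6 and 37.2, while MLANA had 1 to 5 counts and TYRP1 0 to 4 in any sample. Of 10 urothelial markers 8 were listed, with a sum of 106740 to 118382 normalized counts with Control sh and 24407 to 27823 with VprBP sh, where UPK1B was at 0. KRT5 and KRT7 carried the sum, with means of 64989 and 35085 with Control sh and 3488 and 21576 with VprBP sh. TP63 went from 8929 to 9.44 and KRT13 from 4346 to 6.18, whereas GATA3 went the other way, from 7, 1 and 0 counts to 1580, 1334 and 1873. The fibroblast markers (4 of 6 listed) summed to 755 to 803 and 457 to 602 with LUM at 0 with VprBP sh, the endothelial markers (4 of 4) to 697 to 723 and 29.03 to 40.63, and the single leukocyte marker listed of 5, CD68, had 654 to 1049 and 1.12 to 5.20. Mitochondrial genes held 1.96 to 1.98% of the counts with Control sh and 4.10 to 4.48% with VprBP sh. These values separate the same 2 groups as the shRNA does, and their part in the results below was not tested.

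Hexokinases trap glucose in the cell by phosphorylation, and phosphofructokinase then commits it to glycolysis. Aldolase splits the resulting six-carbon sugar, enolase acts near the end of the sequence, and lactate dehydrogenase turns pyruvate into lactate while restoring the NAD+ that glycolysis needs. The active lactate dehydrogenase is a tetramer of LDHA and LDHB subunits. LDHA is the subunit typical of skeletal muscle and of many tumours, and LDHB the one typical of heart. Switching between isozymes is a known feature of tumour metabolism, and melanoma is among the tumours studied for it.

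The bases just upstream of the transcription start are shown for the aldolases and the lactate dehydrogenases, since in each of these pairs one gene kept high counts in VprBP sh while its partner had few or none. Each sequence is the 250 bases before a start that RefSeq annotates on GRCh38.p14, where several are listed the one closest to the start of the canonical transcript, written 5′ to 3′ on the strand of the gene. Capitals mark ACGTG or its reverse complement CACGT, the core that the hypoxia-inducible factors bind. Where these overlap as CACGTG they spell the E-box core that MYC binds.
LDHA: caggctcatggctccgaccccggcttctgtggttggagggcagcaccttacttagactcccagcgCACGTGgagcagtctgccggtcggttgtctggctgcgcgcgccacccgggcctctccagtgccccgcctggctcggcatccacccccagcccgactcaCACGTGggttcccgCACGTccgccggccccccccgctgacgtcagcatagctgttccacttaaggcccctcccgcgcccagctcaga
LDHB: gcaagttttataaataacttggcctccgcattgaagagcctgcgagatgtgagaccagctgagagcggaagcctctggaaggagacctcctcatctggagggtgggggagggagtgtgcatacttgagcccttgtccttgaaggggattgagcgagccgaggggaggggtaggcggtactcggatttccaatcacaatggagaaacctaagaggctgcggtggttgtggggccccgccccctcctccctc
ALDOA: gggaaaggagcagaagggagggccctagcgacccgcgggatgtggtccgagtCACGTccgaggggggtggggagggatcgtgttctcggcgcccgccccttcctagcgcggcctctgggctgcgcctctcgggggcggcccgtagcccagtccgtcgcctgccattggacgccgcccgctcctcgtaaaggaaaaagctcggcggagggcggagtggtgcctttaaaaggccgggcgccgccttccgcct
ALDOC: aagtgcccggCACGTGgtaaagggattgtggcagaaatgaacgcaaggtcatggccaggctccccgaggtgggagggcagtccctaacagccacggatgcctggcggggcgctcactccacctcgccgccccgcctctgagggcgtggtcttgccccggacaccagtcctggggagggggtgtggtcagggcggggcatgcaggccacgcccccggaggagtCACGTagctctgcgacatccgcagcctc
The LDHA window lies at chr11:18394313-18394562 on the plus strand, the LDHB window at chr12:21657843-21658092 on the minus strand, the ALDOA window at chr16:30065510-30065759 on the plus strand and the ALDOC window at chr17:28576896-28577145 on the minus strand. On either strand, LDHA held 5 matches to ACGTG, ALDOC held 3, ALDOA held 1 and LDHB held 0. The overlapping form CACGTG, each copy of which counts as 2 of these matches, occurred 2 times in LDHA and 1 time in ALDOC. Of all 35116 promoter windows of this length, 18.5% held ACGTG, 32.2% held GCGTG, the other form of that core, and 6.35% held CACGTG. LDHB held none of these letters in this window, and it had 9 CpG dinucleotides at a GC content of 58.0%, against a median of 11 and 58.0% over all windows. LDHA had 22 CpG, ALDOA 29 and ALDOC 18. Among the other 6 genes HK2 held 2 matches to ACGTG, ENO2 held 1, and HK1, PFKP, PFKL and ENO1 held 0. The form GCGTG is not marked by capitals. On either strand it occurred 2 times in ALDOC and in ENO1, and 1 time in each of HK1, HK2 and PFKL. LDHA, LDHB, ALDOA, PFKP and ENO2 held 0 matches to it. For HK1 and PFKP the RefSeq start lies 217 and 422 bases downstream of the start of the transcript used below. The PFKP window thus lies wholly, and the HK1 window mostly, within the span of that transcript. A match of letters is a description of the sequence and was not tested as a binding site.

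HK1, the hexokinase of most tissues, differed little between the groups. HK1 (ENSG00000156515.24, chromosome 10, plus strand, 69269984 to 69401884 on hg38) had 6746, 6798 and 7691 counts in the 3 Control sh samples and 6116, 6362 and 8603 in the 3 VprBP sh samples. After scaling by upper quartile factors the means were 7500 ± 281 and 6678 ± 131 normalized counts, for a log2 fold change of -0.17 ± 0.07 (SE) that turned to 0.05 when the samples were scaled by library size alone. The 3 normalized values of HK1 did not overlap between groups, but its TPM did (counts per transcript length, scaled to 1 fixed total in each sample), at 203 to 219 with Control sh and 204 to 218 with VprBP sh. HK2, the inducible hexokinase that many tumours carry, lies on chromosome 2 (ENSG00000159399.10, plus strand, 74834127 to 74893359). It had 2180, 1859 and 2025 counts with Control sh and 2059, 2552 and 3648 with VprBP sh. The normalized values of HK2 overlapped between groups, with means of 2156 ± 325 and 2582 ± 256 and a log2 fold change of 0.26 ± 0.12 (SE). In TPM the HK2 values did not overlap, at 34.2 to 45.4 with Control sh and 47.1 to 55.4 with VprBP sh. The pattern of both hexokinases therefore depended on the scale used.

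The phosphofructokinases differed in opposite directions. PFKP, the platelet-type subunit, was the main form with Control sh, and PFKL, the liver-type subunit, was the main form with VprBP sh. PFKP (ENSG00000067057.18, chromosome 10, plus strand, 3066333 to 3137718) had 9758, 9628 and 10811 counts with Control sh and 1223, 1592 and 2187 with VprBP sh. Every VprBP sh sample was far below every Control sh sample, and the normalized means of PFKP, 10675 ± 560 and 1565 ± 173, differed 6.82-fold (log2 fold change -2.77 ± 0.10, SE). PFKL (ENSG00000141959.17, chromosome 21, plus strand, 44300051 to 44327376) had 3148, 3310 and 3694 counts with Control sh and 6259, 9871 and 13148 with VprBP sh. It was the single gene of the 10 whose normalized values were all higher with VprBP sh, with means of 3583 ± 74 and 9108 ± 1838, a 2.54-fold difference (log2 fold change 1.35 ± 0.14, SE). The first VprBP sh sample was the lowest of its group for PFKL, at 6988 normalized counts against 10257 and 10079, and was still above all Control sh samples.

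Both aldolases were lower with VprBP sh, by very different amounts. ALDOA, the aldolase of muscle and of most dividing cells, lies on chromosome 16 (ENSG00000149925.22, plus strand, 30064164 to 30070457). It had 35777, 34164 and 39202 counts with Control sh and 15334, 21651 and 29970 with VprBP sh. The normalized means were 38591 ± 2492 and 20864 ± 3251 (log2 fold change -0.89 ± 0.12, SE), without overlap. ALDOC, the aldolase typical of brain, lies on chromosome 17 (ENSG00000109107.14, minus strand, 28573115 to 28576948). It had 3020, 3931 and 4564 counts with Control sh and 17, 20 and 21 with VprBP sh. Its normalized mean went from 4034 ± 463 to 18.6 ± 2.4, a 218-fold difference (log2 fold change -7.77 ± 0.16, SE). ALDOC was thus still counted in each VprBP sh sample, above the limit of 3 counts used here for detection. With all its transcripts merged, ALDOA shares 1639 of 3829 exonic bases with ENSG00000285043, a protein-coding gene annotated on the same strand. Reads from the shared bases could be assigned to either gene. That gene had 87, 120 and 151 counts with Control sh and 1161, 1682 and 2166 with VprBP sh, and with both rows summed the log2 fold change of ALDOA was -0.79.

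Both enolases were lower in the VprBP sh samples, by similar amounts. ENO1, the enolase of most cell types, was the most abundant of the 10 genes per length in both groups (ENSG00000074800.16, chromosome 1, minus strand, 8861000 to 8879190). It had 55441, 53623 and 62213 counts with Control sh and 26285, 31328 and 42192 with VprBP sh, or 60511 ± 3265 and 31414 ± 1793 normalized counts (log2 fold change -0.95 ± 0.08, SE). ENO2, the neuronal enolase, lies on chromosome 12 (ENSG00000111674.9, plus strand, 6913745 to 6923698). It had 298, 278 and 293 counts with Control sh and 121, 158 and 248 with VprBP sh, or 308 ± 34 and 163 ± 28 normalized counts (log2 fold change -0.91 ± 0.16, SE). Neither enolase overlapped between groups after scaling. ENO1-AS1, an antisense RNA that overlaps 126 bases of ENO1, had 5 counts at most in any sample.

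LDHA stayed among the abundant transcripts and LDHB was not counted at all with VprBP sh. LDHA (ENSG00000134333.14, chromosome 11, plus strand, 18394560 to 18408425) had 26998, 31757 and 37030 counts with Control sh and 13942, 13495 and 19086 with VprBP sh. Its normalized means were 33640 ± 2054 and 14740 ± 778, a 2.28-fold difference (log2 fold change -1.19 ± 0.08, SE). LDHB (ENSG00000111716.14, chromosome 12, minus strand, 21635342 to 21757857) had 7613, 9018 and 10093 counts with Control sh and 0, 0 and 0 with VprBP sh. Against a limit of 3 counts per library, its mean of 9399 ± 511 normalized counts with Control sh was at least 3216-fold higher than with VprBP sh. The table lists 4 pseudogenes of LDHA and 1 of LDHB. LDHBP2 had 2, 7 and 4 counts with Control sh and 0 in all VprBP sh samples, so no reads were counted there either. The largest of the pseudogenes, LDHAP4, reached 0.203% of the largest LDHA count. LDHB also shares 997 exonic bases on its own strand with ENSG00000285854, a gene that is not among the genes listed, so reads given to that gene were not analysed here.

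**Figure D1:**
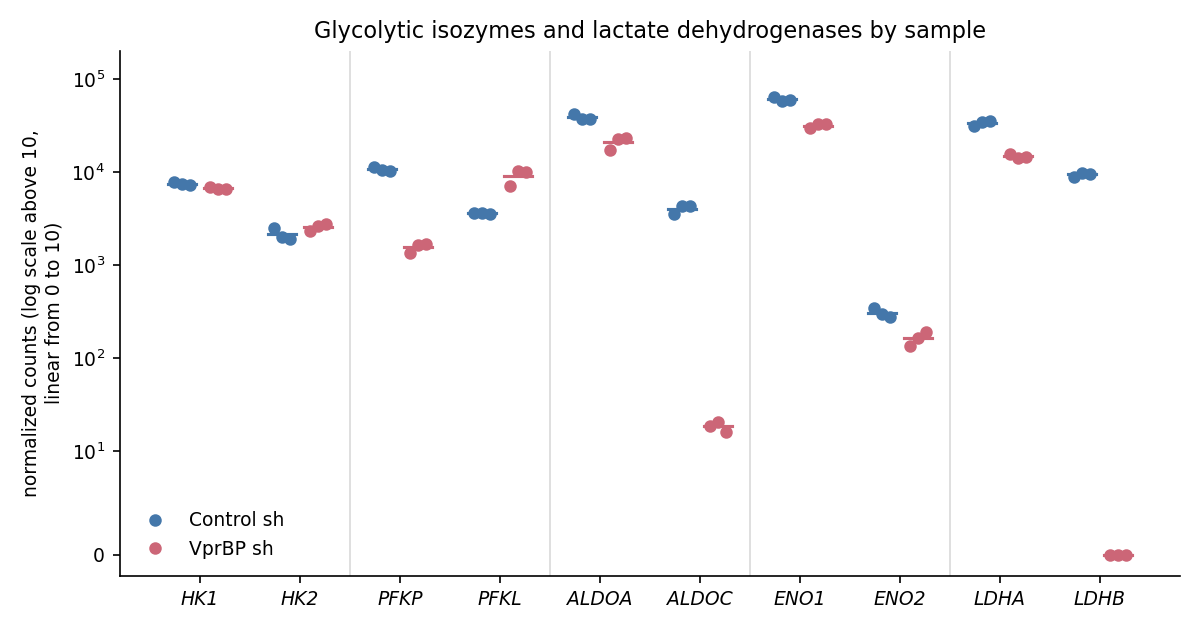
Normalized counts of the 10 genes in each of the 3 Control sh (blue) and 3 VprBP sh (red) samples, with a line at each group mean, on an axis that is logarithmic above 10 and linear below. LDHB sits at 0 in all 3 VprBP sh samples, ALDOC near 19, and PFKL is the gene whose red points all lie above its blue points without overlap.

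All 10 genes passed the filter on low counts that left 16756 genes, LDHB through its values with Control sh alone. The normalized values did not overlap between groups for 9 of the 10 genes, 8 lower and 1 higher with VprBP sh, while over all genes tested 79.5% did not overlap, 37.3% lower and 42.2% higher. Since this contrast was used to choose the genes, nothing is read from that count. The median log2 fold change of the 10 genes was -0.93, with LDHB at its bound, and that of all genes tested was 0.08. The fold changes nearest to 2-fold depended on the scaling, with LDHA at -0.98 on the log2 scale with library size alone, and ENO1 at -1.04 with TMM factors and -1.06 in DESeq2.

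Per length of the canonical transcript the genes ranked in an order in each group in which no neighbours overlapped. The order depends on the length used, and other lengths were not tried for it. PFKP has 2626 bases in that transcript and 7774 in merged exons, and ALDOC has 1608 and 2612. In Control sh the mean levels in TPM were 3425 for ENO1, 2372 for ALDOA, 1513 for LDHA, 727 for LDHB, 410 for PFKP, 253 for ALDOC, 210 for HK1, 124 for PFKL, 38.6 for HK2 and 13.6 for ENO2. ALDOC and HK1 came closest, with a lowest ALDOC value of 219.9 TPM and a highest HK1 value of 219.3. In VprBP sh the order was ENO1 at 1998 TPM, ALDOA at 1440, LDHA at 746, PFKL at 354, HK1 at 210, PFKP at 67.5, HK2 at 52.0, ENO2 at 8.05, ALDOC at 1.31 and LDHB at 0. Among 21460 genes with a length, LDHB ranked 192 with Control sh and ALDOC 647, and with VprBP sh ALDOC ranked 14210. ENO1 went from rank 15 to rank 36 and PFKL from rank 1456 to rank 409.

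The share that one isozyme takes of its pair does not depend on the scaling between samples. PFKL made up 22.6%, 23.7% and 23.6% of the PFKP and PFKL transcripts with Control sh, per length, and 82.2%, 84.9% and 84.5% with VprBP sh. The means were 23.3 ± 0.6% and 83.8 ± 1.4% (SD, n = 3), and the ratio of PFKP to PFKL counts differed 17.1-fold (log2 difference -4.10). LDHB made up 32.7%, 32.8% and 31.9% of the LDHA and LDHB transcripts with Control sh, a mean of 32.5 ± 0.5%, and 0% with VprBP sh. With 0 LDHB counts beside 13942, 13495 and 19086 LDHA counts, shares of counts of up to 0.0215%, 0.0222% and 0.0157% would have gone unseen. These limits and the intervals below cover counting error only. With LDHB at 3 counts per VprBP sh library, the ratio of LDHA to LDHB differed at least 1426-fold.

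ALDOC made up 7.93%, 10.5% and 10.6% of the aldolase transcripts with Control sh and 0.113%, 0.0941% and 0.0714% with VprBP sh. As a share of counts in the first VprBP sh sample it was 0.111%, with an exact 95% Clopper-Pearson interval of 0.0645 to 0.177%. The group means per length were 9.68 ± 1.52% and 0.0928 ± 0.0208%, and the ratio of ALDOA to ALDOC was 116-fold higher with VprBP sh. HK2 made up 17.1%, 14.9% and 14.4% of the hexokinase pair with Control sh and 17.7%, 20.4% and 21.4% with VprBP sh. The groups did not overlap, by a narrow margin, and the means were 15.5 ± 1.5% and 19.8 ± 1.9%. ENO2 made up 0.416%, 0.401% and 0.364% of the enolase pair with Control sh and 0.356%, 0.390% and 0.454% with VprBP sh. These shares of ENO2 overlapped, and the ratio of ENO1 to ENO2 differed by -0.02 on the log2 scale with SDs of 0.10 and 0.18. The composition of the pair thus differed by far more than the spread between samples for phosphofructokinase, aldolase and lactate dehydrogenase, by more than 1 SD for hexokinase, and by less than the spread for enolase.

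**Figure D2:**
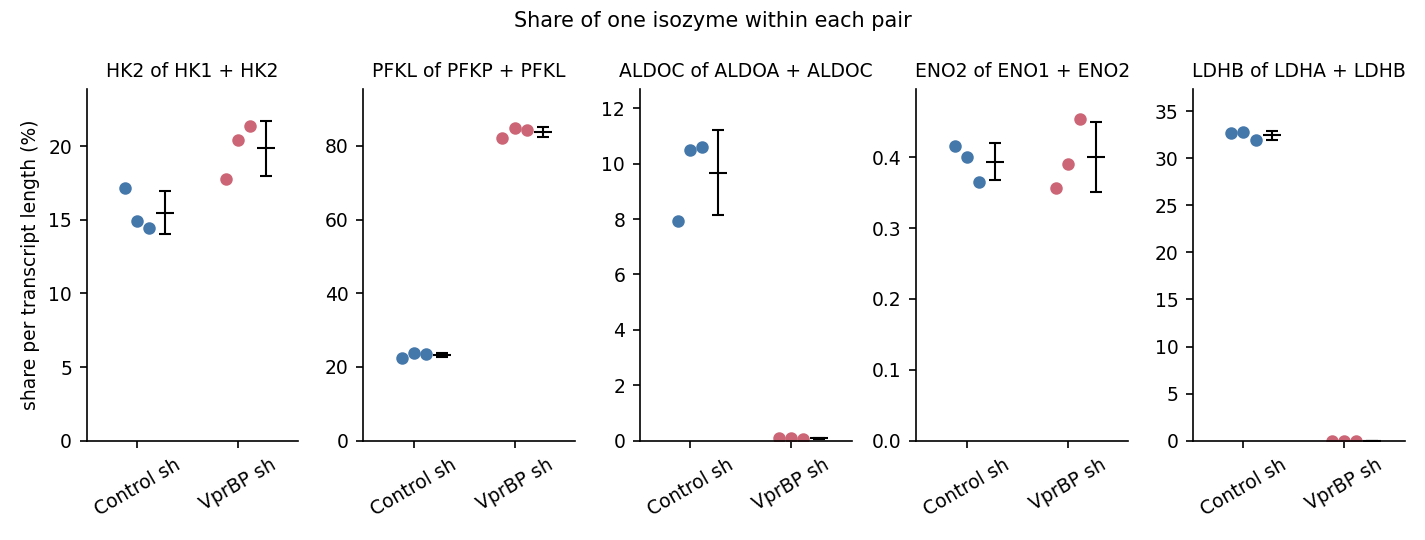
Share of the second isozyme in each pair per transcript length, in percent, for each Control sh (blue) and VprBP sh (red) sample, with the mean and SD of each group beside the points and axes that start at 0. PFKL goes from a mean of 23.3% of its pair to 83.8%, ALDOC is near 0 and LDHB at 0 with VprBP sh, and the enolase shares overlap.

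The summed level of each pair was higher with Control sh for 4 of the 5 steps. LDHA and LDHB together had 2240 ± 126 TPM with Control sh and 746 ± 48 with VprBP sh, a 3.00-fold difference and the largest of the pairs. The aldolases summed to 2625 ± 129 and 1441 ± 205 TPM, and the enolases to 3438 ± 192 and 2006 ± 90. The phosphofructokinases summed to 534 ± 25 TPM with Control sh and 422 ± 74 with VprBP sh, a 1.27-fold difference and the smallest of these 4, with no overlap between the samples. The hexokinases summed to 249 ± 14 and 262 ± 3 TPM, and their samples overlapped.

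**Figure D3:**
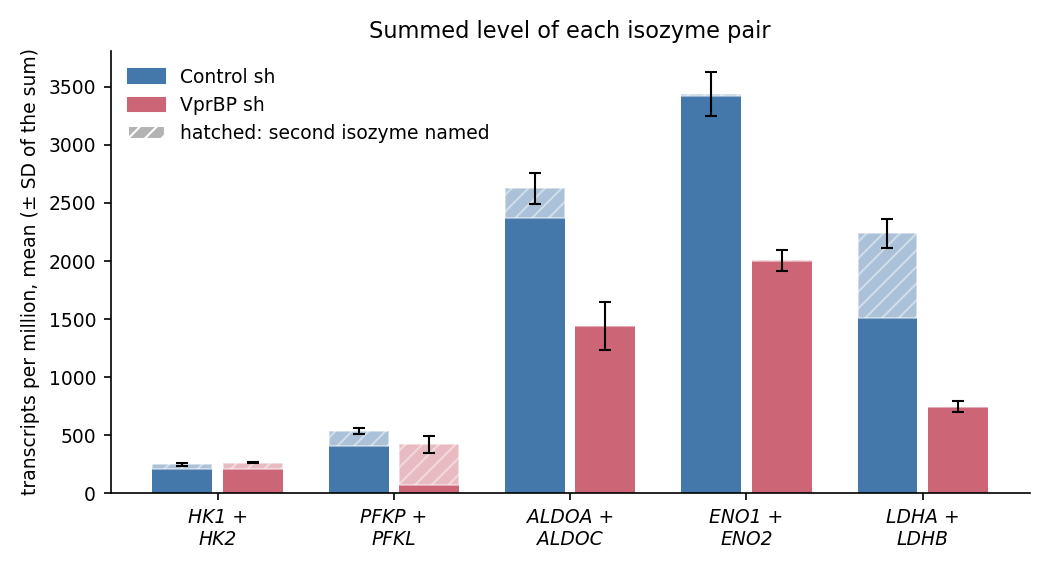
Summed TPM of each isozyme pair, with bars for the mean of the 3 Control sh (blue) and 3 VprBP sh (red) samples, error bars for the SD of the sum, and the second isozyme hatched on top of the first. The hatched LDHB part, 727 TPM with Control sh, is absent with VprBP sh, and the hatched PFKL part is larger with VprBP sh at 354 TPM.

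Of the remaining isozymes of these families, PFKM and HKDC1 fell and ENO3 rose. LDHD, which was not counted in the family of LDHA and LDHB, also rose. PFKM, the muscle-type phosphofructokinase, fell from 1436 ± 50 to 478 ± 15 normalized counts (log2 fold change -1.59 ± 0.09, adjusted p = 2.14e-07, edgeR's quasi-likelihood test with Benjamini-Hochberg adjustment over all genes, as for every adjusted p here). With PFKM included, PFKL was 21.4% of the family with Control sh and 80.4% with VprBP sh. HKDC1, a further hexokinase, had 73, 39 and 39 counts with Control sh and 0, 5 and 5 with VprBP sh, and fell (log2 fold change -4.06, adjusted p = 0.000207). ENO3, the muscle enolase, rose from 20.7 to 139 normalized counts (log2 fold change 2.75, adjusted p = 1.51e-05), which left it far below ENO1. LDHC, the subunit of testis, had 2 to 6 counts in all samples and was not tested. LDHD, a mitochondrial enzyme that acts on D-lactate, rose from 14, 1 and 7 counts to 57, 114 and 146 (log2 fold change 3.63, adjusted p = 0.000172).

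Of the other enzymes of the sequence, HKDC1, PFKM and ENO3 included, 10 could be tested, of which 6 fell and 1 rose past both thresholds. A gene was called at a fold change over 2 and an adjusted p under 0.05, which 46.4% of the 16756 genes tested passed, 22.0% lower and 24.5% higher, and the median log2 fold change of the 10 was -1.24. TPI1, which interconverts the products of aldolase, fell from 15261 to 3373 normalized counts (log2 fold change -2.18, adjusted p = 8.41e-08). PKM, the pyruvate kinase that makes pyruvate, fell from 75334 to 23122 (log2 fold change -1.70, adjusted p = 6.66e-08), and PGAM1, the step before enolase, fell from 17414 to 6390 (log2 fold change -1.45, adjusted p = 3.22e-07). ADPGK, a kinase that uses ADP to phosphorylate glucose, fell from 1785 to 874 (log2 fold change -1.03, adjusted p = 3.07e-06), a call lost with library size alone and also without VprBP sh replicate 1, at a log2 fold change of -0.9999. GAPDH, PGK1 and GPI stayed under 2-fold. GAPDH had 76160 and 55941 normalized counts (log2 fold change -0.45), PGK1 had 20691 and 15572 (log2 fold change -0.41) and GPI had 14372 and 9886 (log2 fold change -0.54).

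**Figure D4:**
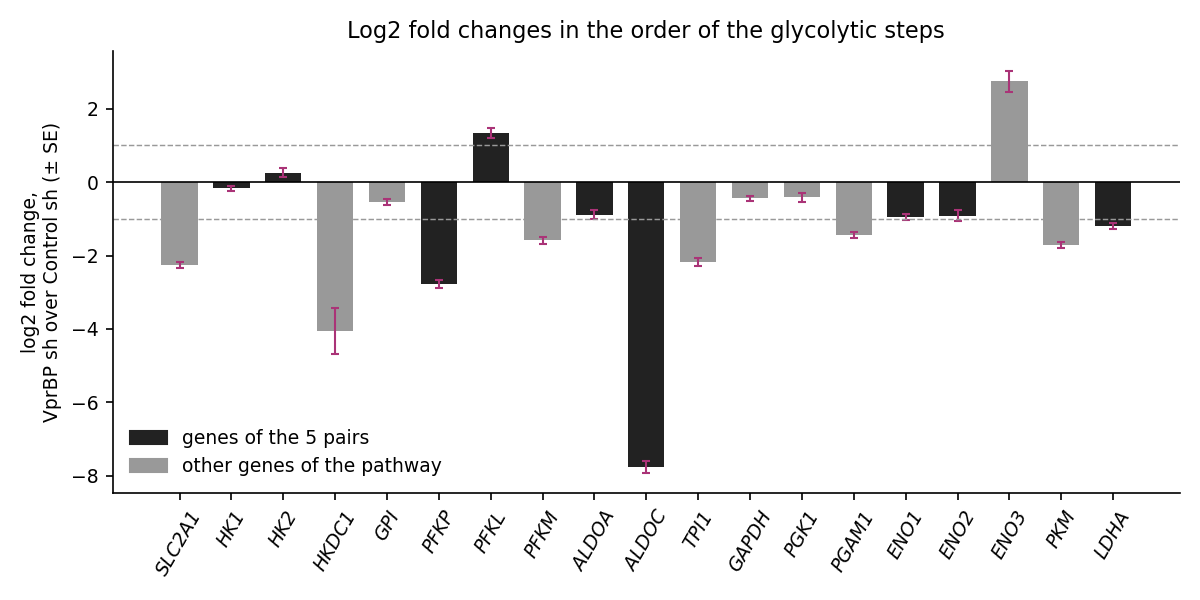
Log2 fold change of VprBP sh over Control sh with its SE for the genes of the 5 pairs (black) and other genes of the pathway (grey), from glucose uptake by SLC2A1 to LDHA, with dashed lines at a 2-fold change. LDHB has no bar because its VprBP sh counts are all 0, and PFKL and ENO3 stand above the upper dashed line while ALDOC reaches -7.77.

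Genes for the exit of lactate and the entry of glucose differed in both directions. Of 8 tested genes for lactate and pyruvate transport 5 fell and 2 rose, or 87.5% against 46.4% of all genes tested. SLC16A3, the exporter MCT4 of glycolytic cells, fell from 3933 to 66.9 normalized counts (log2 fold change -5.86, adjusted p = 6.2e-09). EMB, a chaperone of these carriers, had 769, 953 and 1071 counts with Control sh and 0 in all VprBP sh samples, at least 336-fold lower. SLC16A7, the carrier MCT2, had 588, 617 and 703 counts with Control sh and 1, 2 and 0 with VprBP sh, and SLC16A8, the carrier MCT3, had 2, 1 and 1 and then 130, 190 and 213. Chosen after their values were seen, SLC16A1, the carrier MCT1, fell from 3519 to 107 normalized counts (log2 fold change -5.07, adjusted p = 5.27e-07), BSG, its partner protein, fell from 22726 to 9993 (adjusted p = 5.7e-06), and MPC1, a subunit of the mitochondrial pyruvate carrier, rose from 89.4 to 591 (adjusted p = 6.4e-07). Of 7 tested glucose transporters 3 fell and 2 rose, or 71.4%. SLC2A1, the transporter GLUT1, fell from 29399 to 6149 normalized counts (log2 fold change -2.26, adjusted p = 2.14e-08), SLC2A6 from 837 to 5.71 and SLC2A12 from 720 to 12.3, whereas SLC2A10 rose from 1268 to 3621. The other one that rose was SLC2A4, the insulin-responsive GLUT4, from 11.8 to 32.2 (adjusted p = 0.00158), named after its values were seen.

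Some enzymes that set the pace of phosphofructokinase and the fate of pyruvate also differed, but the shares called were near or under that of all genes. PFKFB3, which makes the sugar bisphosphate that activates phosphofructokinase, fell from 7175 to 703 normalized counts (log2 fold change -3.35, adjusted p = 5.48e-09), and TIGAR, which breaks that molecule down, rose from 68.5 to 230 (log2 fold change 1.74, adjusted p = 5.22e-05). They were the only called genes of the 4 tested for that metabolite. Of 11 genes of the pyruvate dehydrogenase complex and its regulators 2 rose and 2 fell, or 36.4% against 46.4% of all genes. PDP1, a phosphatase that activates the complex, fell from 17516 to 510 normalized counts (log2 fold change -5.10, adjusted p = 3.52e-10). PDK2, an inhibitory kinase, had 436, 438 and 505 counts with Control sh and 0, 0 and 1 with VprBP sh, while PDK3, another such kinase, rose from 442 to 1986 (log2 fold change 2.17, adjusted p = 3.12e-08). DLAT, a core subunit, rose from 1211 to 2769 (log2 fold change 1.19, adjusted p = 1.39e-05). Over the 8 lists of glycolysis and its neighbouring pathways 52 genes were tested, of which 12 rose and 19 fell, 59.6% in all against 46.4% of all genes tested, with a median log2 fold change of -0.23.

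LDHB was viewed beside its neighbours on chromosome 12. The closest listed protein-coding genes on either side, SPX and KCNJ8, and ABCC9 beyond KCNJ8, had few counts with Control sh and none with VprBP sh. SPX, which encodes a peptide hormone, had 16, 24 and 15 counts with Control sh, KCNJ8 had 4, 6 and 8 and ABCC9 had 29, 12 and 16. KCNJ8 and ABCC9 encode subunits of a potassium channel that senses ATP. Farther out, counts remained with VprBP sh. RECQL, a DNA helicase, fell from 1809 ± 37 to 829 ± 20 normalized counts (log2 fold change -1.13, adjusted p = 1.02e-06), a call lost with library size alone. GOLT1B, a protein of vesicle transport, had 1293 ± 71 and 657 ± 91 (log2 fold change -0.98), just under 2-fold but past it with TMM factors, in DESeq2 and without Control sh replicate 3 or VprBP sh replicate 1, and CMAS, which activates sialic acid, had 1339 ± 67 and 1166 ± 52 (log2 fold change -0.20, adjusted p = 0.0571), with a direction that turned with library size alone. The run of listed protein-coding genes at 0 with VprBP sh therefore comprised SPX, LDHB, KCNJ8 and ABCC9, of which LDHB alone was abundant with Control sh.

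**Figure D5:**
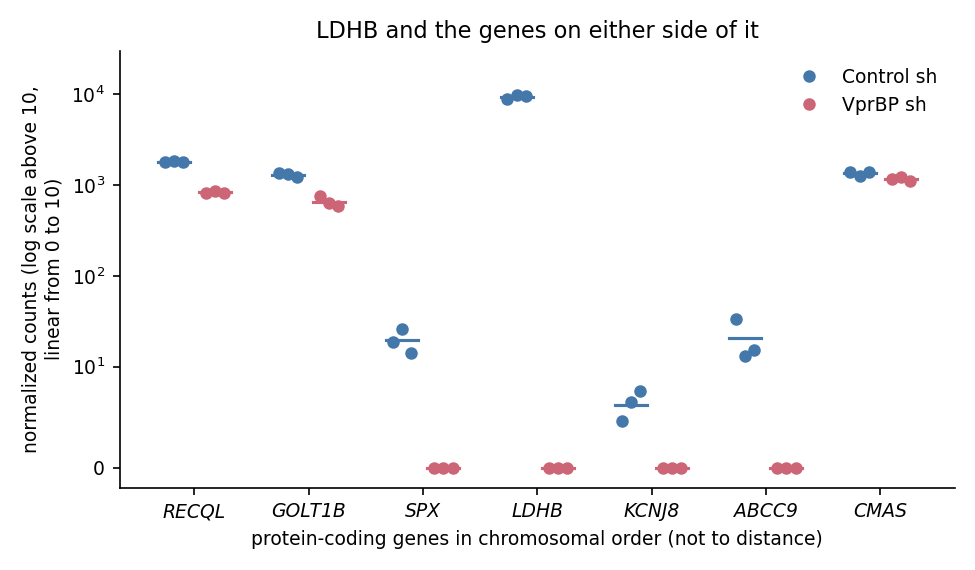
Normalized counts of LDHB and the 3 listed protein-coding genes on either side of it, in chromosomal order and not to distance, in each Control sh (blue) and VprBP sh (red) sample, with lines at the means and an axis that is logarithmic above 10 and linear below. SPX, LDHB, KCNJ8 and ABCC9 are at 0 in all 3 VprBP sh samples, while RECQL, GOLT1B and CMAS keep between 583 and 1212 normalized counts there.

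Other abundant genes shared the pattern of LDHB. Protein-coding genes that stayed at or under 3 counts in all VprBP sh samples while averaging 1000 or more normalized counts with Control sh numbered 92, and LDHB ranked 10 by that average. The nearest above it were DKK3, a secreted modulator of WNT signalling, at 10307 ± 1245 normalized counts, and NGFR, the low-affinity neurotrophin receptor, at 9579 ± 572. The nearest below were IL1A, the cytokine interleukin-1 alpha, at 8761 ± 750, and PPL, the desmosome-associated protein periplakin, at 7732 ± 700. All 4 had 0 counts in each VprBP sh sample. They were matched to LDHB on their level in 6 samples and on nothing else.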

How the data were processed

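RNA-seq was analysed for 3 Control sh and 3 VprBP sh samples, grouped by the sample labels. By the study's methods the authors prepared libraries with a strand-specific KAPA kit, whereas the labels name a SMARTER kit, sequenced single reads of 50 bases, aligned them to hg38 with GENCODE 29 by STAR and quantified them per gene with a tool that is not given in the sources used here. Whether counting used strand is not given in the sources used here. The deposited values are estimated counts per gene, 59.4% of them whole, without pooling of replicates, and each of the 21494 genes sums to at least 10 over the 6 samples. Columns were matched to samples by the control or DCAF1 tag and the replicate number in the titles.

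Counts were rounded and tested with edgeR 4.0.16 in R 4.3.3 (quasi-likelihood test, upper quartile factors at 0.75, low-count filter set to 10, 16756 genes retained, all 6 samples, group as the only term). It replaces the Gene Specific Algorithm (Partek Flow) that the methods name. A call needed an adjusted p under 0.05 (Benjamini-Hochberg) and a fold change over 2, as in the methods. The biological coefficient of variation was 0.126. Standard errors are the log2 fold change over the square root of F. Normalized counts are counts over the product of library size and upper quartile factor, with that product divided by its mean over the 6 samples. TPM used the canonical transcript of GENCODE 44, which matched 21460 genes. A count under 3 was set to 3 for folds and ratios, which are then bounds. Only the edgeR and DESeq2 fits were tested on simulated data, in which far fewer genes differed than were called here. DESeq2 1.42.0, other scalings and filters, lengths, a replicate block and single samples left out were tried as alternatives.

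The 10 genes and the lists were chosen with earlier results of these data known. Named were the 10 genes, further isozymes, other glycolytic enzymes averaging 100 normalized counts or more in a group, up to 4 called genes of largest change per further list at that level, the 3 listed protein-coding genes on either side of LDHB, the 2 genes above and the 2 below it in Control sh level among those near 0 in VprBP sh, pseudogenes, overlapping genes and DCAF1.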

Additional observations from a re-analysis of the deposited data

How the results depend on the processing

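Scaling moved the 10 genes together. HK1 had a log2 fold change of -0.27 with TMM factors, 0.045 with library size alone, which turned its direction, and -0.29 in DESeq2. ENO1 had -1.04, -0.73 and -1.06, LDHA had -1.29, -0.98 and -1.31, and the bound of LDHB was -11.75, -11.44 and -11.77 under the same settings. With library size alone HK2 had 0.47, PFKP -2.56, ALDOC -7.56 and CMAS 0.013, which turned the direction of CMAS. The median over all genes was 0.08 as reported, -0.01 with TMM factors, 0.29 with library size alone and -0.03 in DESeq2. ADPGK, TKT, HIF1A and RECQL were no longer called with library size alone, nor ADPGK without VprBP sh replicate 1, and GOLT1B was called with TMM factors, in DESeq2, and without Control sh replicate 3 or VprBP sh replicate 1.

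Of the pathway genes 12 were called higher and 19 lower. Without a fold threshold 19 were higher, and at 10 or more counts in every sample 12 were lower, since fewer genes were then tested. At that minimum the genes lower were 1 in place of 3 glucose transporters, 3 in place of 5 for lactate and pyruvate transport, 1 in place of 2 for pyruvate dehydrogenase and 0 in place of 1 for gluconeogenesis, and the genes higher were 1 in place of 2 for lactate and pyruvate transport and 0 in place of 1 for LDHD and for MYCN. With library size alone 3 HIF targets were higher in place of 1, and without VprBP sh replicate 1 it was 2, when 2 transcription factors were lower in place of 1. Leaving out one sample at a time gave 12 to 13 higher and 18 to 19 lower. It gave a bound of -11.76 to -11.51 for LDHB and a log2 difference of the ENO1 to ENO2 ratio between -0.099 and 0.077, which was 0.04 without Control sh replicate 3 and 0.077 without VprBP sh replicate 3 and so turned sign. ENO2 passed 2-fold without VprBP sh replicate 3, at -1.04. The log2 difference of the LDHA to LDHB ratio was 13.06 with a pseudocount of 0.5 and 12.08 on summed counts, as the value set for 0 counts differs.

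Shares moved with the length used. From raw counts the share in Control sh and VprBP sh was 22.2% and 27.9% for HK2 and 0.506% and 0.515% for ENO2, and in Control sh 25.1% for PFKL and 21.8% for LDHB. With merged exons it was 24.9% and 31.0% for HK2, 13.3% and 0.133% for ALDOC, 0.616% and 0.627% for ENO2, and in Control sh 22.6% for PFKL and 36.1% for LDHB. With the whole family PFKL had 21.4% and 80.4%.

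The groups share replicate numbers, but same-numbered samples did not deviate together (correlations of -0.20, -0.068 and -0.16 over 12184 genes). With the replicate block 7686 genes were called in place of 7778, and the pathway genes stayed at 12 higher and 19 lower. Depth limits the values at 0, which stand for at most 3 counts per library. The overlap of ALDOA and LDHB with other annotated genes was not resolved, nor the source name that differs from the cell line.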

Other observations

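Genes of neighbouring pathways were read beside the 10 genes. In the pentose phosphate pathway, which branches off before phosphofructokinase, 2 of 7 tested genes rose and 1 fell, or 42.9% against 46.4% of all genes tested. PGLS, the lactonase of its oxidative arm, rose from 1043 to 3369 normalized counts (log2 fold change 1.69, adjusted p = 2.34e-06, edgeR), and PGD, which yields NADPH, rose from 1745 to 4752 (log2 fold change 1.45, adjusted p = 2.36e-07). TKT, the transketolase that links the arm back to glycolysis, fell from 17276 to 8220 (log2 fold change -1.07, adjusted p = 1.48e-06), a call that was lost with library size alone. Of 4 tested genes of gluconeogenesis, PCK2, the mitochondrial carboxykinase, rose from 491 to 1571 (log2 fold change 1.68, adjusted p = 4.34e-05), and FBP1, a fructose bisphosphatase named after its values were seen, fell from 77.9 to 3.71 (log2 fold change -4.32).

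Among 5 transcription factors known to act on glycolytic genes 1 fell and 1 rose past both thresholds, or 40.0% against 46.4% of all genes tested. HIF1A fell from 16332 to 7551 normalized counts (log2 fold change -1.11, adjusted p = 1.44e-05), which was under 2-fold with library size alone. MYCN rose from 2, 6 and 1 counts to 59, 122 and 152 (adjusted p = 1.24e-05), a mean of 103 normalized counts with VprBP sh. The more abundant MYC, named after its values were seen, was lower but under 2-fold. It had means of 3723 and 2189 (log2 fold change -0.77, adjusted p = 0.0389), with 3594, 1492 and 1480 in the 3 VprBP sh samples. Of 13 HIF targets outside glycolysis 7 fell past both thresholds, 53.8% against 22.0% of all genes tested, and the median log2 fold change was -1.36. The 1 that rose past them was the oxygen sensor EGLN3 (named after its values were seen), from 2046 to 5711. By direction alone 8 of the 13 were lower and 5 higher. Among the higher ones, also named after their values were seen, VEGFA and CA9 stayed under 2-fold. VEGFA had 2560 and 3694 normalized counts without overlap (log2 fold change 0.53, adjusted p = 0.00903). CA9 had 265 and 477 with overlap (log2 fold change 0.85, adjusted p = 0.0359). NDRG1, a stress-responsive gene, fell from 18470 to 2278 normalized counts (log2 fold change -3.02, adjusted p = 5.19e-05), with 819, 2837 and 3875 counts in the 3 VprBP sh samples. ADM, the peptide adrenomedullin, fell from 1989 to 264 (log2 fold change -2.91), and the collagen hydroxylases P4HA2 and P4HA1 fell from 3159 to 462 and from 2477 to 535.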
